A study of Mus musculus with 16 samples.

Results

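The enzymes that modify foreign compounds and steroids fall into 4 gene families whose transcripts were followed in mouse endometrial epithelial organoids. Members were taken by gene symbol: cytochrome P450 genes of families Cyp1 to Cyp4, the UDP-glucuronosyltransferases Ugt1 and Ugt2, the cytosolic glutathione S-transferases (Gst classes a, m, p, t, o and z) and the sulfotransferases Sult1 to Sult6. Pseudogenes and Sult1a1 were left out. The deposited table of 23306 genes held 59 of them (25 Cyp, 7 Ugt, 20 Gst and 7 Sult genes), out of 141 such symbols in the mouse annotation. Of the 59, 45 reached a normalized count of at least 10 in at least 4 libraries and were tested (19 Cyp, 4 Ugt, 17 Gst and 5 Sult genes), and 29 were at or above 10 in all 16 libraries.

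The organoids, 3-dimensional cultures of endometrial epithelium, came from control mice with floxed Tgfbr2 alleles (Tgfbr2 FF) and from Tgfbr2 cKO mice (Tgfbr2 PRcre+), in which Cre is driven by the progesterone receptor gene. Tgfbr2 encodes a TGF-beta receptor, and Cre was present in the cKO libraries alone. Treatment began after 2 days of culture and lasted 6 days. Vehicle groups received vehicle throughout; hormone groups received estradiol (E2) at 10 nM, alone for 2 days and then for 4 days together with the progestin MPA (medroxyprogesterone acetate) at 1 µM. Each of the 4 groups had 4 libraries, numbered M1 to M4 (control, vehicle), M5 to M8 (cKO, vehicle), M9 to M12 (control, E2/MPA) and M13 to M16 (cKO, E2/MPA). Whether replicate libraries are separate mice or cultures is not stated in the labels, so the p-values measure only the spread between these libraries, which may be technical.

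As background, drug metabolism is usually described in steps. Cytochrome P450 enzymes are membrane-bound monooxygenases that add oxygen to a substrate, and they take electrons from the reductase Por. Glucuronosyltransferases, glutathione S-transferases and sulfotransferases then attach glucuronic acid, glutathione or sulfate, which makes the product more soluble and easier to export. In the uterus the same reactions also act on estrogens, prostaglandins, fatty acids and the products of oxidative stress.

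Library depth ran from 14372111 to 20016836 reads. The epithelial label was checked with 11 epithelial markers: none was at 0 in any library, and their mean log2 level ran from 12.29 to 12.53. Stromal markers (14 genes, collagens among them) differed widely between libraries, with a summed normalized count of 831 to 53791 in the vehicle controls, 1641 to 22050 in the cKO vehicle group, 1728 to 47198 in the E2/MPA controls and 2329 to 40063 in the cKO E2/MPA group. The libraries M4, M8, M12 and M16 were the highest of their groups, M1 and M9 came next in the control groups, and the leukocyte markers were highest in M4 and M12 (14561 and 18852, against 1930 to 4712 elsewhere). The fits were repeated without those 4 libraries and with the stromal marker level as a covariate, and values without them are given below for members whose call changed. Fewer cells of a type and less RNA per cell cannot be told apart in such bulk libraries. Tgfbr2 itself had a normalized count of 6014 ± 1467 (SD, n = 4) in vehicle controls and 4325 ± 811 in cKO vehicle libraries, and these ranges overlapped (limma, adjusted p = 0.833). Gene-level counts do not separate the floxed exons from the rest of the gene, so this value did not check the genotype labels.

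The promoters of 4 members are shown because these genes rose with E2/MPA and 3 of them lie in one gene cluster. Gstm6 also rose and lies in that cluster, but its promoter is not shown. Each stretch is the 250 bases before the outermost listed start, 5′ to 3′ on the gene's strand, from RefSeq on GRCm38.p6: chr5:87569007-87569256 for Sult1d1, chr3:107931818-107932067 for Gstm7, chr3:107986421-107986670 for Gstm2 and chr3:108017974-108018223 for Gstm1, all on the minus strand. Capitals mark matches on either strand to TGTTCT (the core to which the progesterone and glucocorticoid receptors bind, shown as AGAACA on the other strand) or GCGTG (the core bound by the aryl hydrocarbon receptor, CACGC on the other strand).
Sult1d1: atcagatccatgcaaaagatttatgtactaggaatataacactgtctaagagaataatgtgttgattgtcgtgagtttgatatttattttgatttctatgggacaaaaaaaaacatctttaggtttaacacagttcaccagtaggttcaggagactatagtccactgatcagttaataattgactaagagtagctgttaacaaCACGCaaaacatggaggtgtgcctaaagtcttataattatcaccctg
Gstm7: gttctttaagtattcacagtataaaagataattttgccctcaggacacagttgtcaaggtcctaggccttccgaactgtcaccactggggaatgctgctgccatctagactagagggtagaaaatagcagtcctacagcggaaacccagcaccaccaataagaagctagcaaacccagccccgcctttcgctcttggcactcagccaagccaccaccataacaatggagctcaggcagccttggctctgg
Gstm2: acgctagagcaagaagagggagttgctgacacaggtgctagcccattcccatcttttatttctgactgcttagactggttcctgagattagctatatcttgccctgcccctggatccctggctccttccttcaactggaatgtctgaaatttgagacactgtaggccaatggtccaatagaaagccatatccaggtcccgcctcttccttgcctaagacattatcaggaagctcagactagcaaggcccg
Gstm1: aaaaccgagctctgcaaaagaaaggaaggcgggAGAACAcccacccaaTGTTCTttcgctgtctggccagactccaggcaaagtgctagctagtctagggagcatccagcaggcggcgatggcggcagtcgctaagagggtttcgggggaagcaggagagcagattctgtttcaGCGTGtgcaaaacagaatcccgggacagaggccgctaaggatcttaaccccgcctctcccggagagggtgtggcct
The stretch of Gstm1 held an AGAACA and a TGTTCT match and a GCGTG match, Sult1d1 held a GCGTG match on the other strand, and the stretches shown for Gstm2 and Gstm7 held no match to any motif searched. The other listed start of Gstm7 had an antioxidant response core in its window. Of the 3 windows listed for Gstm6, chr3:107943349-107943648 held AGAACA and chr3:107943685-107943984 held AGAACA and TGTTCT. The window chr3:107953417-107953716 held no match. Of 32841 mouse promoter windows of 300 bases, 19.0% held TGTTCT and 32.4% held GCGTG, so such matches are common. The full receptor site, AGAACA and TGTTCT with 3 bases between them, contains TGTTCT and was in 3 windows in all (0.00913%). The estrogen receptor site, GGTCA and TGACC with 3 bases between them, was in 0.0700% and the antioxidant response core (TGAC, 3 bases, GC) in 12.4%, and none of the 4 stretches held any of these. Promoter windows were found for 47 of the 59 members. Of the 11 windows listed for members called higher, several of which belong to the same gene, 5 held TGTTCT, 3 held GCGTG and 1 the antioxidant response core. TGTTCT was also in the windows of Cyp2j6 and Ugt1a7c, called lower, and of members not called, such as Ugt1a6a and Sult1c2. The windows of Cyp3a13 and Gstt1, also called lower, held no match. A match of letters is not a measured binding site.

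Levels differed greatly between and within the families. Per kilobase of exon, the mean normalized count over the 16 libraries was highest for Gsto1, an omega-class enzyme that reduces dehydroascorbate, at 16039. Sult1d1, a sulfotransferase of phenols and catecholamines, followed at 1601, and Gstp1, the pi-class enzyme, at 1530. A single gene made up most of 3 families on this per-length scale: Sult1d1 gave 96.5% of the Sult sum, Ugt1a7c 88.9% of the Ugt sum and Gsto1 82.1% of the Gst sum. The Cyp sum was spread more evenly, with 21.2% from Cyp2j6, an epoxygenase of fatty acids, 17.7% from Cyp2s1, 16.3% from Cyp4f13 and 13.8% from Cyp4f16.

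**Figure D1:**
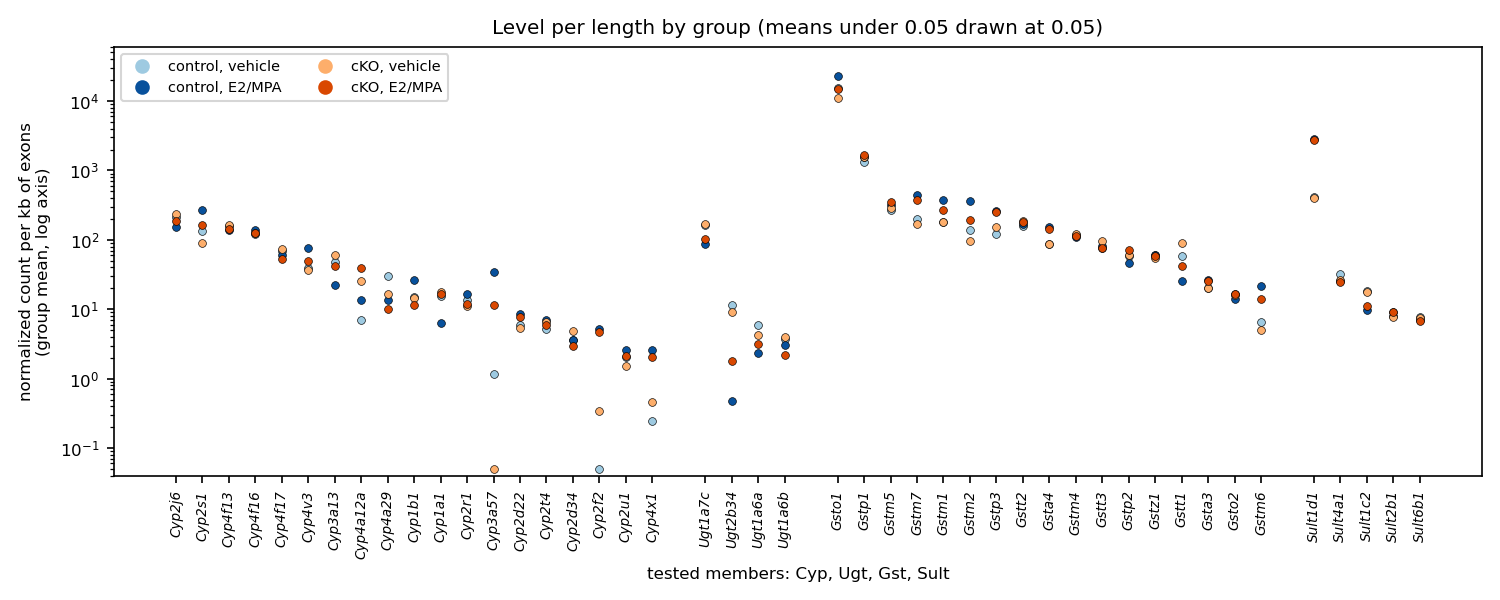
Group means of the normalized count per kilobase of exon (log axis) for the 45 tested members, ordered by level within each family; each point is the mean of 4 libraries. Gsto1 stands above every other member, and Sult1d1 is the member of its family with the widest gap between vehicle and E2/MPA.

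In control organoids, E2/MPA changed 12 of the 45 tested members (26.7%), 8 upward and 4 downward. Over all 16509 genes tested, 8.9% were called (5.39% higher, 3.51% lower; limma on log2(normalized count + 1), adjusted p under 0.05). At an unadjusted p under 0.05 there were 18 members, beside 23.9% of all genes. Of the 8 higher members, Cyp3a57, Cyp2f2 and Cyp4x1 reached the filter's minimum of 10 in E2/MPA libraries alone, so being tested already required them to be high there. Without such features, a count added after the data were seen, 9 of 42 members were called (5 higher, 4 lower; 21.4%), beside 8.44% of all genes. With a filter of a mean of at least 50, 8 of 27 members were called (4 higher, 4 lower), beside 11.7% of all genes. The calls were spread over the families: 5 of 19 Cyp genes (3 higher, 2 lower), 1 of 4 Ugt genes (lower), 5 of 17 Gst genes (4 higher, 1 lower) and 1 of 5 Sult genes (higher). All 4 E2/MPA libraries lay above all 4 vehicle libraries for 6 of 45 members (6.66% of all genes) and below them for 3 of 45 (5.49%). The 6 include Cyp3a57 and Cyp2f2, which had to be high under E2/MPA to be tested at all. The median log2 change was 0.27 for Cyp, -1.08 for Ugt, 0.29 for Gst and -0.21 for Sult, beside -0.00 for all genes tested. The Cyp median still includes Cyp3a57, Cyp2f2 and Cyp4x1. Without M4, M8, M12 and M16, 14 of 45 were called in controls, beside 13.4% of all genes. The 3 gained, named after their values were seen, were Gstp3 (log2 change 1.11, adjusted p = 0.0210), Gsta4 (0.88, adjusted p = 0.0267) and Cyp4v3 (1.13, adjusted p = 0.0349), and Gstt1 was lost. With all libraries their adjusted p was 0.0631, 0.107 and 0.142. All 4 tested Ugt genes had a negative log2 change, of which only Ugt1a7c passed the test. These 4 are not separate observations, because Ugt1a7c, Ugt1a6a and Ugt1a6b share exons of 1 locus (below). The other, Ugt2b34, varied widely between vehicle libraries.

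In cKO organoids, E2/MPA changed 7 of the 45 (15.6%), 5 upward and 2 downward, beside 4.19% of all genes tested (2.71% higher, 1.48% lower). At an unadjusted p under 0.05 there were 14 members, beside 18.6% of all genes. The groups did not overlap for 4 members that were higher (8.01% of all genes) and 3 that were lower (5.8%). The 7 called members were 1 of 19 Cyp genes (higher), 1 of 4 Ugt genes (lower), 4 of 17 Gst genes (3 higher, 1 lower) and 1 of 5 Sult genes (higher). Without the features that reached the minimum in 1 treatment alone, 6 of 42 members were called (4 higher, 2 lower; 14.3%), beside 3.97% of all genes. With a mean of at least 50, 5 of 27 were called (3 higher, 2 lower), beside 5.77% of all genes, and without M4, M8, M12 and M16 there were 7 of 45, 5 of them shared, beside 5.81%. The medians were 0.02 for Cyp, -0.74 for Ugt, 0.29 for Gst and 0.00 for Sult, with Cyp3a57, Cyp2f2 and Cyp4x1 again included. Each of these 7 genes was also called in control organoids, in the same direction. How often this held over all genes called in cKO was not counted, so it is not shown to be particular to these families. Both comparisons come from 1 fit, and Cyp2f2, among the 7, had to be high under E2/MPA to be tested. The 5 called only in controls were Gstm1, Cyp3a57, Cyp4x1, Cyp2j6 and Cyp3a13, and the test of the difference between genotypes called none of the 45 (below).

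**Figure D2:**
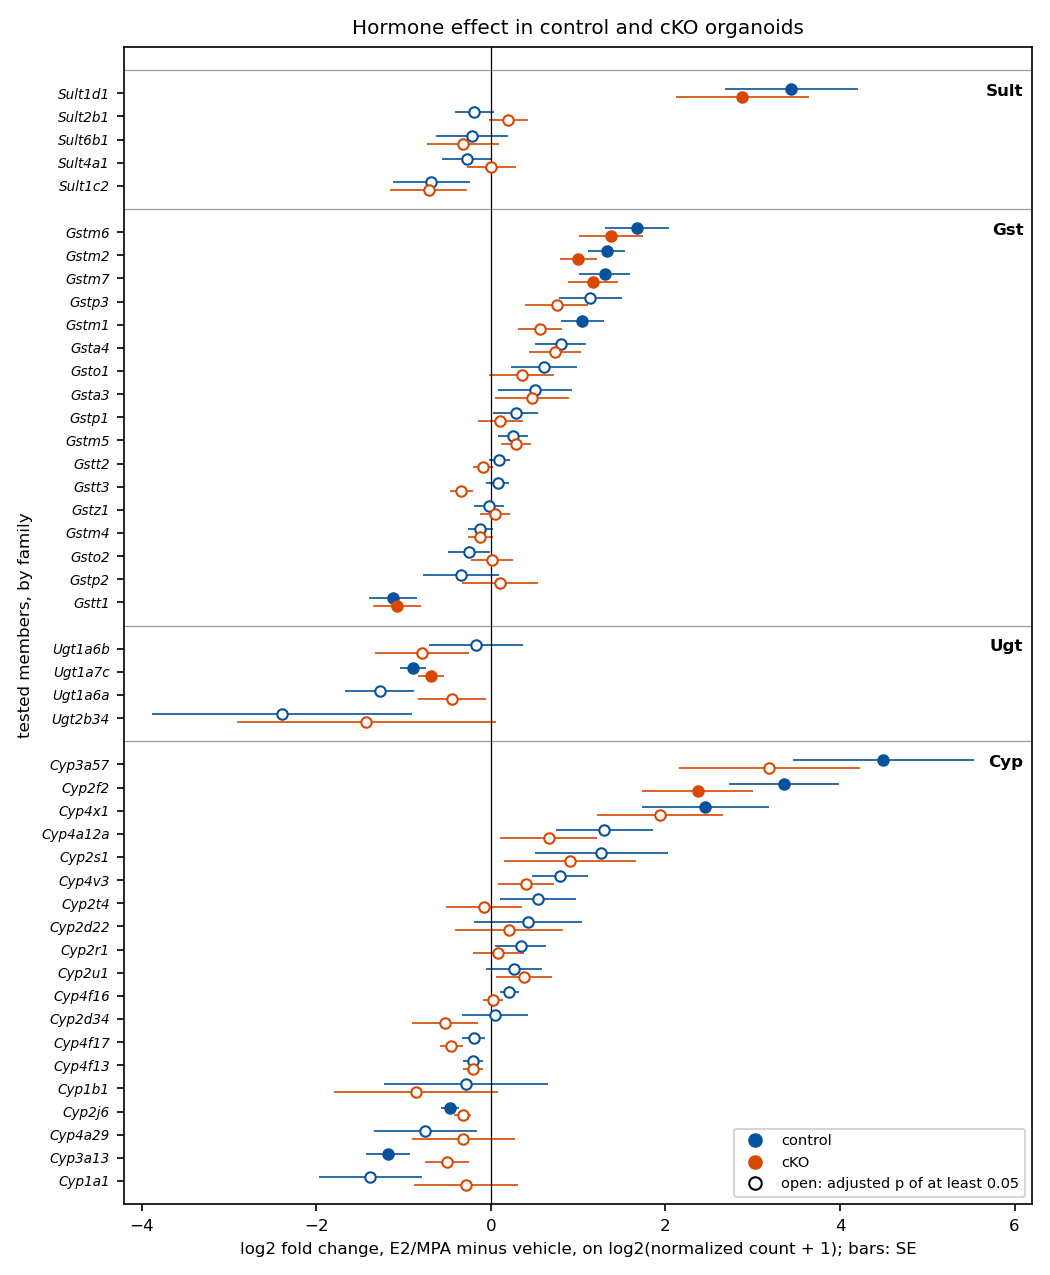
Log2 fold change with its SE, E2/MPA minus vehicle, for the 45 tested members in control and cKO organoids, by family (n = 4 libraries a group). Filled points passed an adjusted p of 0.05: 12 in controls and 7 in cKO.

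Summed over each family, the normalized count of the Sult genes, most of it Sult1d1, went from 1178 ± 913 (SD, n = 4) to 7208 ± 2860 in controls. In cKO it went from 1146 ± 496 to 6803 ± 2032, and the groups did not overlap in either genotype. The Ugt sum, most of it Ugt1a7c, went from 792 ± 114 to 398 ± 45.4 in controls. In cKO it went from 788 ± 120 to 468 ± 67.5, again with no overlap in either genotype. The Gst sum, most of it Gsto1, went from 36057 ± 11023 to 52914 ± 11040 in controls and from 28379 ± 8465 to 36938 ± 13984 in cKO, and the ranges overlapped in both. The Cyp sum was 3319 ± 529 and 3911 ± 1035 in controls and 3274 ± 152 and 3350 ± 411 in cKO, with overlap. The sums are described without a test.

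Sult1d1 (ENSMUSG00000029273, chromosome 5, between Sult1b1 and Sult1e1) had the largest rise in normalized count of the called members. Its normalized counts were 449, 1863, 1637 and 93.6 in M1 to M4 of the vehicle controls and 6910, 8596, 9645 and 3145 in M9 to M12 under E2/MPA. Every treated control library lay above every vehicle control, with a log2 change of 3.44 (SE 0.763, adjusted p = 0.0117). In cKO the counts were 1291, 939, 1440 and 329 with vehicle (M5 to M8) against 8641, 5484, 8092 and 4449 with E2/MPA (M13 to M16), again without overlap. The log2 change in cKO was 2.88 (SE 0.763, adjusted p = 0.0475). The lowest library of each group was the one with the most stromal transcripts: M4, M8, M12 and M16. Without those 4 libraries the log2 change was 2.90 (SE 0.426, adjusted p = 0.00117) in controls and 2.59 (SE 0.426, adjusted p = 0.00438) in cKO. Leaving out 1 library at a time ended the cKO call in 12 of 16 fits (each of M1, M5 to M11 and M13 to M16; adjusted p up to 0.134) and the control call in none.

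Of the other 4 tested sulfotransferases, none was called in either genotype. Sult4a1, a brain-enriched member without a well-defined substrate, stood at 79.6 ± 25.7 and 63.2 ± 8.68 in controls without and with E2/MPA. Sult2b1, which sulfates cholesterol, stood at 35.7 ± 6.22 and 31.5 ± 7.63. Sult1c2 stood at 34.0 ± 20.5 and 17.7 ± 1.62 (log2 change -0.68, adjusted p = 0.374). Sult1e1, the estrogen sulfotransferase, and Sult1b1 lie on either side of Sult1d1 and were too low to be tested, and Sult1e1 reached at most 6.60 in any library. Sult1b1 had 4 reads in the vehicle controls and 22 under E2/MPA, with counts of 0, 1.13, 2.45 and 0 against 8.01, 8.00, 3.46 and 3.30. Every treated control library was higher, but on few reads and without a test. Sult1e1 and Sult1b1 are named here after their values were seen. In cKO, Sult1b1 had 5 reads under vehicle and 15 under E2/MPA, with overlap.

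**Figure D3:**
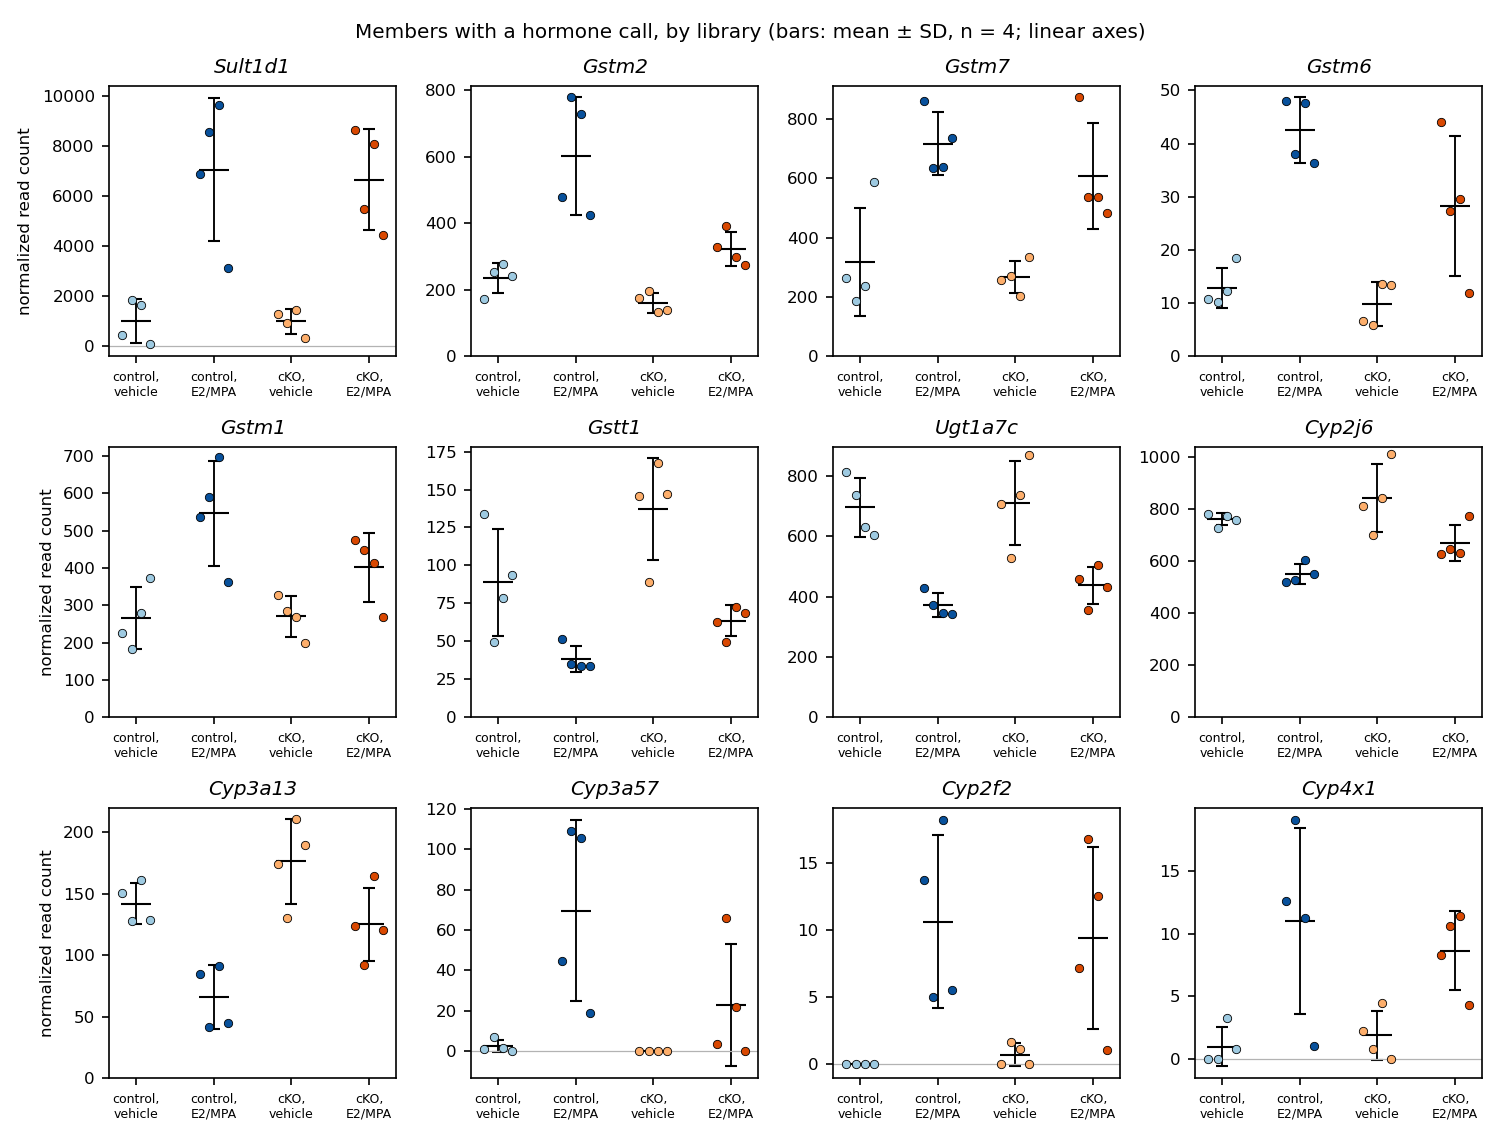
Normalized read count in each of the 16 libraries (points) for the 12 members with a hormone call, with the mean and SD of the 4 libraries of a group; axes are linear and differ between panels. Sult1d1, Gstm2 and Gstm6 lie higher and Ugt1a7c lower in every E2/MPA control library than in every vehicle control library.

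The mu-class glutathione transferases, which conjugate epoxides and products of lipid peroxidation, held most of the Gst calls. They lie in a row on chromosome 3 in the order Gstm5, Gstm7, Gstm6, Gstm3, Gstm2, Gstm1 and Gstm4, and 6 of the 7 were tested (Gstm3 is not analysed here). The 4 tested genes inside the row rose in controls, and the 2 at its ends did not pass the test. Gstm2 (ENSMUSG00000040562) had counts of 171, 253, 277 and 241 in the vehicle controls and 478, 779, 729 and 426 under E2/MPA. The groups did not overlap, and the log2 change was 1.33 (SE 0.209, adjusted p = 0.00145). In cKO its counts were 176, 197, 133 and 139 with vehicle (M5 to M8) against 327, 393, 299 and 273 with E2/MPA (M13 to M16). That is a log2 change of 1.00 (SE 0.209, adjusted p = 0.0139), which was lost without M7 or without M14 (adjusted p up to 0.0542).

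Gstm7 (ENSMUSG00000004035) had counts of 265, 185, 237 and 587 in the vehicle controls and 861, 634, 638 and 733 under E2/MPA, with M4 the high vehicle library and no overlap. The log2 change was 1.30 (SE 0.288, adjusted p = 0.0116). In cKO, Gstm7 went from 266 ± 54.5 to 607 ± 179, a log2 change of 1.17 (SE 0.288, adjusted p = 0.0341). The cKO call was lost without any 1 of M5, M6, M7, M13, M14 and M15 (adjusted p up to 0.114). Gstm6 (ENSMUSG00000068762), the least abundant of the tested Gst genes per kilobase, had counts of 10.8, 10.2, 12.3 and 18.4 in vehicle controls and 48.1, 38.0, 47.5 and 36.3 under E2/MPA. All treated control libraries were higher, with a log2 change of 1.67 (SE 0.365, adjusted p = 0.0107). In cKO, Gstm6 went from 9.89 ± 4.15 to 28.2 ± 13.2, a log2 change of 1.37 (SE 0.365, adjusted p = 0.0484), with M16 at 11.8 inside the vehicle range. This call was lost in 14 of 16 fits without 1 library (all but those without M4 or M16; adjusted p up to 0.151).

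Gstm1 (ENSMUSG00000058135) had counts of 226, 184, 279 and 374 in the vehicle controls and 538, 590, 698 and 362 under E2/MPA. The treated library M12 lay just under the vehicle library M4, and the other treated libraries lay above all vehicle controls. The log2 change was 1.05 (SE 0.248, adjusted p = 0.0166), and the call was lost without M1, M10 or M11 (adjusted p up to 0.0631). In cKO the log2 change was 0.56 (SE 0.248, adjusted p = 0.239), and without M4, M8, M12 and M16 it was 0.60 (SE 0.151, adjusted p = 0.0375). At the ends of the row, Gstm5 had a log2 change of 0.26 (adjusted p = 0.394) and Gstm4 of -0.12 (adjusted p = 0.656) in controls. These 2 are named here after their values were seen. Of the 50-base words in its transcripts, Gstm1 shared 18.9% with other genes, Gstm6 5.97%, Gstm2 5.65% and Gstm7 0.532%, so a part of the Gstm1 reads could have been assigned to a near-identical copy.

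**Figure D4:**
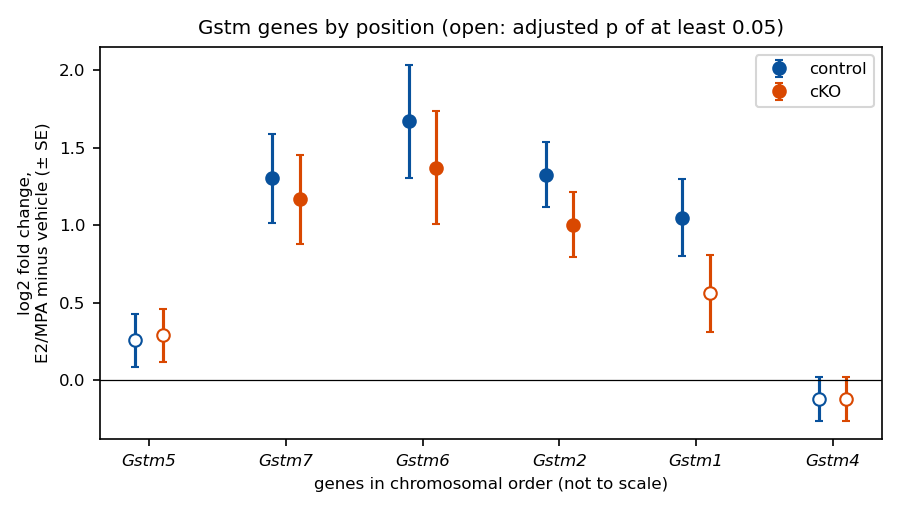
Log2 fold change with its SE, E2/MPA minus vehicle, for the 6 tested Gstm genes in the order in which they lie on chromosome 3 (spacing not to scale; n = 4 libraries a group). In controls the 4 inner genes lie between 1.05 and 1.67 and the end genes at 0.26 and -0.12.

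The remaining Gst calls were of 1 gene. Gstt1 (ENSMUSG00000001663, chromosome 10), a theta-class enzyme that acts on small halogenated compounds, fell in both genotypes. Its counts were 134, 49.7, 78.6 and 93.6 in the vehicle controls and 51.5, 35.0, 33.7 and 34.1 under E2/MPA. The vehicle library M2 lay below the treated library M9, and the log2 change was -1.12 (SE 0.273, adjusted p = 0.0194). This call was lost without M1, M10 or M11 (adjusted p up to 0.0669), and was not reached without M4, M8, M12 and M16 (log2 change -1.02, adjusted p = 0.0750). In cKO its counts were 146, 89.0, 167 and 147 with vehicle (M5 to M8) against 63.1, 49.3, 72.9 and 68.8 with E2/MPA (M13 to M16), without overlap. The log2 change there was -1.08 (SE 0.273, adjusted p = 0.0389), lost without M4, M8, M12 and M16 (adjusted p = 0.0983) and without any 1 of M3, M5, M7, M8, M13, M14, M15 and M16 (adjusted p up to 0.122).

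The most abundant transferases did not pass the test. Gsto1 (ENSMUSG00000025068) stood at 30855 ± 10119 in vehicle controls and 46004 ± 10258 under E2/MPA (log2 change 0.61, SE 0.376, adjusted p = 0.347). Its lowest values, 12651 in M13 and 12693 in M5, were both in cKO libraries. Gstp1 stood at 2045 ± 709 and 2404 ± 385 in controls (adjusted p = 0.547), with M1, M4 and M8 the low vehicle libraries, and it shared 33.7% of its 50-base words with Gstp2. Gstt2, in the same gene row as Gstt1, stood at 665 ± 105 and 706 ± 58.2 (adjusted p = 0.684).

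Of the glucuronosyltransferases, few were expressed, and Ugt1a7c was the member called. Ugt1a7c (ENSMUSG00000090124, chromosome 1), which glucuronidates phenols, had counts of 813, 737, 632 and 604 in vehicle controls and 429, 373, 346 and 344 under E2/MPA. The groups did not overlap, and the log2 change was -0.89 (SE 0.148, adjusted p = 0.00201). In cKO its counts were 708, 530, 737 and 870 with vehicle (M5 to M8) against 460, 355, 504 and 431 with E2/MPA (M13 to M16), without overlap. That log2 change was -0.69 (SE 0.148, adjusted p = 0.0165), lost without M7, M8 or M14 (adjusted p up to 0.0614) and without M4, M8, M12 and M16 (adjusted p = 0.0560). The Ugt1a genes of this locus have their own leading exon and share the later ones: 53.7% of the 50-base words of Ugt1a7c, 52.1% of those of Ugt1a6a and 79.8% of those of Ugt1a6b also occur in other genes. The division of reads among these 3 genes is therefore uncertain.

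Ugt1a6a stood at 25.4 ± 8.25 in vehicle controls and 10.1 ± 4.37 under E2/MPA, just short of the threshold (log2 change -1.27, SE 0.392, adjusted p = 0.0562). Ugt1a6b stood at 8.92 ± 6.18 and 7.28 ± 5.23 (adjusted p = 0.884). Ugt2b34, on chromosome 5, had counts of 0.978, 90.3, 106 and 0.800 in vehicle controls and 4.58, 2.00, 1.73 and 0 under E2/MPA. Its 2 low vehicle libraries, M1 and M4, were those with the most stromal transcripts of their group, and M8 was at 0 in cKO. The log2 change of Ugt2b34 was -2.39 (SE 1.49, adjusted p = 0.350).

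Among cytochromes P450, 3 genes were called higher in controls from very low counts. They are the 3 that reached the filter's minimum in E2/MPA libraries alone, in 6 (Cyp3a57), 4 (Cyp2f2) and 5 (Cyp4x1) libraries, so their values are given as a description. Cyp3a57 (ENSMUSG00000070419, chromosome 5), of the steroid- and drug-oxidising Cyp3a group, had counts of 0.978, 6.77, 1.64 and 0 in vehicle controls and 44.6, 109, 105 and 18.7 under E2/MPA. The groups did not overlap, and the log2 change was 4.50 (SE 1.03, adjusted p = 0.0143), lost without M10 or M11 (adjusted p up to 0.0534). In cKO it had no reads in the 4 vehicle libraries and 3.57, 66.0, 21.7 and 0 under E2/MPA. Taking 3 reads in the whole vehicle group as the floor, the treated cKO mean was at least 31.7-fold higher, but the test did not call it (adjusted p = 0.102). This bound leaves out the spread between treated libraries: M14 held most of the mean and M16 had no read. Without M4, M8, M12 and M16 it was called in cKO (adjusted p = 0.0116).

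Cyp2f2 (ENSMUSG00000052974, chromosome 7), known for naphthalene oxidation in airway club cells, had no reads in the 4 vehicle controls and counts of 13.7, 5.00, 18.2 and 5.50 under E2/MPA. The treated mean of 10.6 was at least 15.5-fold higher than that floor of 3 reads (adjusted p = 0.00466), a bound that also leaves out the spread between libraries. In cKO, 3 reads under vehicle stood against 37 under E2/MPA, a ratio of 13.6 with a 95% counting interval of 4.30 to 68.8 that covers counting error only. The cKO call (adjusted p = 0.0494) was lost in 15 of 16 fits without 1 library (all but that without M16; adjusted p up to 0.155). Cyp4x1 (ENSMUSG00000047155, chromosome 4), a fatty-acid oxygenase known from brain, had counts of 0, 0, 3.27 and 0.800 in vehicle controls and 12.6, 19.0, 11.2 and 1.10 under E2/MPA. The treated library M12 lay within the vehicle range, and the log2 change was 2.46 (SE 0.727, adjusted p = 0.0484). The Cyp4x1 call was lost in 12 of 16 fits without 1 library (all but those without M3, M7, M8 or M12; adjusted p up to 0.160).

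The 2 cytochromes P450 that fell were better covered. Cyp2j6 (ENSMUSG00000052914, chromosome 4) had counts of 782, 729, 776 and 761 in vehicle controls and 522, 528, 604 and 551 under E2/MPA. The groups did not overlap and were tight, with a log2 change of -0.47 (SE 0.0995, adjusted p = 0.00910). In cKO it went from 844 ± 129 to 671 ± 70.3 (log2 change -0.32, SE 0.0995, adjusted p = 0.0846). Cyp3a13 (ENSMUSG00000029727, chromosome 5), another Cyp3a gene, had counts of 151, 128, 161 and 129 in vehicle controls and 84.7, 42.0, 91.6 and 45.1 under E2/MPA. It had a log2 change of -1.18 (SE 0.252, adjusted p = 0.00943) and no overlap. In cKO its log2 change was -0.50 (SE 0.252, adjusted p = 0.311).

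The abundant cytochromes P450 Cyp2s1, Cyp4f13 and Cyp4f16 were not called in the fit without pairing. Cyp2s1, which metabolises prostaglandin-like lipids and retinoids, had counts of 233, 1176, 1144 and 127 in vehicle controls and 754, 2033, 1999 and 439 under E2/MPA. Within each group of 4 its lowest library was M4, M8, M12 or M16, and its log2 change of 1.27 (SE 0.760) had an adjusted p of 0.334. With the stromal marker level as a covariate, an alternative chosen after the data were seen, the log2 change was 1.61 (SE 0.170, adjusted p = 9.71e-06). Calls were common in that fit, with 19 members and 25.9% of all genes called in controls. Cyp4f13 stood at 700 ± 34.6 and 613 ± 101 (adjusted p = 0.283), and Cyp4f16 at 372 ± 44.6 and 430 ± 55.4 (adjusted p = 0.264); both belong to the group that hydroxylates leukotrienes and fatty acids. Cyp2j11, named after its values were seen, was not tested: it had no reads in the 8 vehicle libraries, 43.0 and 35.4 in M10 and M11, and at most 2.29 in the other treated libraries. Among tested members called in neither genotype, the log2 change in controls ran from -2.39 (Ugt2b34) to 1.30 (Cyp4a12a). The 14 untested members reached a count of 10 in at most 3 libraries each.

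The genotypes were compared within each treatment. Under vehicle, 0 of the 45 members were called, as were 0% of all genes, and edgeR and DESeq2 on the recovered reads also called 0 members. At an unadjusted p under 0.05 there were 4 members, beside 5.96% of all genes: Cyp4a12a, Gstm2, Gstt3 and Gstt1. The cKO libraries lay wholly above the controls for 1 member (1.64% of all genes), Cyp4a12a, and wholly below for 0 (1.37%). Cyp4a12a and Gstt3 are named after their values were seen. Cyp4a12a, a fatty-acid hydroxylase gene that shares 48.9% of its 50-base words with Cyp4a12b, had counts of 9.78, 32.7, 23.7 and 2.40 in vehicle controls against 47.1, 106, 41.8 and 51 in cKO vehicle libraries. Its cKO minus control log2 difference was 2.14 (SE 0.557, adjusted p = 0.777). Under E2/MPA 0 of 45 were called, beside 0.00606% of all genes, and edgeR also called 0 members. DESeq2 called 2 (Gstm2 and Cyp3a13), beside 1.12% of all genes called by DESeq2. Unadjusted, there were 7 members beside 10.9% of all genes. Every cKO library lay above every control for 3 members (3.82% of all genes) and below for 1, Gstm2 (2.35%). For Gstm2 the cKO minus control log2 difference was -0.54 (SE 0.209, adjusted p = 0.816) under vehicle and -0.86 (SE 0.209, adjusted p = 0.181) under E2/MPA, where all 4 cKO libraries lay below all 4 controls. For Gstt1 it was 0.67 (SE 0.273, adjusted p = 0.824) under vehicle and 0.71 (SE 0.273, adjusted p = 0.349) under E2/MPA. For Cyp3a13 under E2/MPA it was 0.97 (SE 0.252, adjusted p = 0.182). The genotype comparisons share libraries with the hormone comparisons, so these values are not separate evidence.

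Whether the hormone effect differed between genotypes was tested as an interaction. It called 0 of 45 members and 0% of all genes by limma, and edgeR and DESeq2 also called 0 members. At an unadjusted p under 0.05 there was 1 member, Gstt3, beside 1.87% of all genes. For Gstm1, called in controls alone, the cKO minus control difference in log2 change was -0.49 (SE 0.351), and for Cyp3a13 it was 0.68 (SE 0.356), neither past the threshold. For Sult1d1, called in both, it was -0.56 and also not past it. A p-value above the threshold does not show that the genotypes responded alike.

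The genes around these enzymes were followed in 5 lists. Of 12 tested regulators of these families, 2 rose and 1 fell in controls, beside 8.9% of all genes called. In cKO 0 of the 12 passed by limma, beside 4.19% of all genes. Ahr, the aryl hydrocarbon receptor, fell from 1306 ± 237 to 713 ± 209 (log2 change -0.90, adjusted p = 0.0235). Its partner Arnt rose from 818 ± 17.4 to 1035 ± 71.2 (adjusted p = 0.00272), and Rxra, the shared partner of many nuclear receptors, rose by 0.48 on the log2 scale (adjusted p = 0.00688). The receptor genes Nr1i2 and Nr1i3 and Hnf4a are not analysed here. The most abundant regulators in the list, Nfe2l2 and Mafg, had log2 changes of -0.16 and 0.08 in controls.

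Of 15 tested targets of NRF2, the oxidative-stress factor encoded by Nfe2l2, 2 rose and 0 fell in controls, beside 8.9% of all genes called. Srxn1, which repairs oxidised peroxiredoxins, rose from 478 ± 80.1 to 959 ± 285 (log2 change 0.97, adjusted p = 0.00318). Gclm, the modifier subunit of the enzyme that starts glutathione synthesis, rose by 0.71 on the log2 scale (adjusted p = 0.00745), and also in cKO, by 0.56 (adjusted p = 0.0441), where it was the only gene of the list called.

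Of 13 tested genes that supply cofactors, 4 rose and 1 fell in controls, and 3 rose and 1 fell in cKO, beside 8.9% and 4.19% of all genes called. Ugp2, which makes UDP-glucose on the way to the glucuronic acid donor, rose from 1431 ± 137 to 2908 ± 662 in controls (log2 change 1.00, adjusted p = 0.000820) and by 0.67 in cKO (adjusted p = 0.0180). It rose while Ugt1a7c fell. The cytochrome b5 system, a second electron source for P450 enzymes, moved upward: Cyb5r3 by 0.65, Cyb5a by 0.48 and Cyb5b by 0.35 on the log2 scale in controls (adjusted p = 0.00177, 0.00842 and 0.00373), and Cyb5r3 and Cyb5b also in cKO. Ggct, an enzyme of glutathione breakdown, fell by 1.07 on the log2 scale in controls and by 1.02 in cKO (adjusted p = 0.0167 and 0.0347).

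Of 20 tested genes of other oxidation, conjugation and hydrolysis steps, 1 rose in controls, and 1 rose and 1 fell in cKO, beside 8.9% and 4.19% of all genes called. Aldh1a1, the retinaldehyde dehydrogenase, had counts of 73.3, 457, 236 and 122 in vehicle controls and 1382, 1979, 1652 and 1164 under E2/MPA. The log2 change was 3.09 (SE 0.598, adjusted p = 0.00528), and in cKO it was 3.04 (SE 0.598, adjusted p = 0.00987). Aldh3b1 fell by 0.62 on the log2 scale in cKO (adjusted p = 0.0341). Of 11 tested transporters, 1 rose and 1 fell in controls and 1 rose in cKO, beside the same background. Slc22a5, which carries carnitine, rose in both genotypes, by 1.14 in controls and 0.85 in cKO on the log2 scale (adjusted p = 0.000970 and 0.0110), and the efflux pump Abcc1 fell in controls by 0.40 (adjusted p = 0.0472). No gene of the 5 lists was called between genotypes or in the interaction by limma.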

How the data were processed

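RNA libraries were prepared with a TruSeq kit and sequenced on an Illumina NovaSeq instrument, per the labels' protocols. Alignment and counting tools named in the submitters' processing notes are HISAT2 and featureCounts, with DESeq2, on build GRCm39; versions and the strand setting are not given in the sources used here, so reads of overlapping antisense genes cannot be told apart. The authors deposited 1 signal table: gene-level reads divided by a size factor per library. Whole reads were recovered from it (100% of values within 0.01 of a whole number). Of 23306 gene identifiers, 22484 had a symbol. Genes at 10 or more in at least 4 libraries were fitted with limma 3.58.1 (R 4.3.3) on log2(normalized count + 1), which understates the fold of low genes, with all 16 libraries in 1 fit, a mean-variance trend and Benjamini-Hochberg adjustment over 16509 genes; tests were two-sided. edgeR 4.0.16 and DESeq2 1.42.0 on recovered reads were alternatives. Per-length levels used exon-union lengths of a GRCm38 annotation. The fit was tested on simulated data. Members named are those called, the 4 most abundant and the 2 with the lowest hormone p of each family. Members and lists were chosen with earlier results of these data known.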

Additional observations from a re-analysis of the deposited data

Results flagged for a closer look

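In groups of 4 libraries, a library was singled out when its gap to the nearest other library took up more of the group's range than Dixon's 95% critical value. Over the 24 named members and 4 groups, 5 of 96 comparisons met this (5.21%), about the share of 1 in 20 that chance gives. Under vehicle in cKO, M8 was low for Cyp2s1 (130, against 512 to 583 in the other 3 libraries) and for Gstp1 (1436, against 2673 to 2845); M8 also had the highest stromal marker level of its group. Under E2/MPA in cKO, M16 was high for Cyp2j6 (775, against 628 to 649) and M13 was high for Gstm7 (873, against 483 to 536). Under E2/MPA in controls, M9 was high for Gstt1 (51.5, against 33.7 to 35.0). All values are normalized read counts.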

How the results depend on the processing

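The count of members called under E2/MPA in controls (12) was 6 with only the compared groups in the fit (2.93% of all genes called). It was 19 with libraries 8 numbers apart as a replicate block (27.1%) and 19 with the stromal level as a covariate (25.9%). When 1 library was left out it was 8 to 15, beside 4.6% to 13.5% of all genes. In cKO the count (7) was 4 without the filter on low counts (2.54% of all genes). It was 14 with the replicate block (18.8%) and 15 with the stromal covariate (19.1%). Without 1 library it was 0 to 7, beside 2.19% to 5.01% of all genes. It was 0 without M7 (2.34%) and 0 without M14 (2.23%). Under E2/MPA the genotype count (0) was 2 with DESeq2 (1.12% of all genes called). It was also 2 with library quality weights (3.62%) and 2 with the stromal covariate (2.81%). The cause of these moves was not tested. The labels do not state that libraries 8 numbers apart are paired; their deviations correlated at 0.386 to 0.746, and each of M1 to M8 correlated best with its partner. With that block in controls, Cyp2s1 was called (log2 change 1.27, adjusted p = 0.0479) and Gsto1 was not (0.61, adjusted p = 0.0552). No named call reversed its direction under any alternative. The alternatives refit the same libraries for members chosen because they were called, so a reversal was unlikely from the start. Leaving out M4, M8, M12 and M16 (chosen after the data were seen, as were the covariate and quantile normalization) gave 14 calls in controls, 11 of them shared with the 12, and 7 in cKO, 5 of them shared. Quantile normalization moved the share of higher calls over all genes in controls from 60.6% to 48.5%, and over members from 66.7% to 58.3%. With only the compared groups, the control calls of Sult1d1, Gstm7, Gstm1, Gstt1, Cyp3a13 and Cyp4x1 were not reached. Depth limits the low P450 genes: Cyp2f2 had 43 reads in all treated controls.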
